A study of Mus musculus with 6 samples.

Results

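The genes described here are 40 genes of the cell division cycle, measured on single-colour Agilent arrays of back skin. The mice were females of the inbred strain C57BL/6J, aged 6 to 8 weeks. The genes were chosen by name, and all 40 of 40 were on the array, through 65 probes. Each had a probe well above background on 6 of 6 arrays, so all 40 were among the 17777 genes tested. Of the members, 17 serve DNA replication, 17 serve mitosis and 6 act across the cycle (Mki67, Top2a, Ccna2, Cdk1, Foxm1 and Melk). One group of 3 samples had received a cream of 5% imiquimod, which activates Tlr7 and is used in mice to bring on skin inflammation resembling psoriasis. The other group of 3 had received a vehicle cream. Either cream went onto the shaved back at 62.5 mg per day for 7 days. The labels name no engineered allele. They also do not say that each sample came from its own mouse, so a p-value here covers only sample-to-sample spread, possibly technical.

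A dividing cell first loads the Mcm2 to Mcm7 helicase onto replication origins with the help of Cdc6 and Cdt1. Cyclin E, Cdc45 and the GINS complex then start the helicase, while Pcna clamps the polymerases to DNA and Tyms, Rrm1 and Rrm2 supply nucleotides. In mitosis, Cdk1 with B-type cyclins, Plk1 and the Aurora kinases build the spindle. The checkpoint proteins hold back the anaphase-promoting complex, which acts with Cdc20, its activator, and Ube2c, its ubiquitin-conjugating enzyme. In skin, the basal layer of the epidermis and the matrix of growing hair follicles are the main dividing compartments. Thickening of the epidermis is a hallmark of psoriasis. The measured whole skin mixes all these cells, and fewer dividing cells cannot be told apart from less of these RNAs per cell.

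The replication and mitosis members carry different words in their promoters. They are shown because replication and mitosis genes also differed in the size of their variation between arrays, described further on. The RefSeq table (GRCm38.p6, 250 bases before to 50 after a start) held 33 promoters of 32 of the 40 members, and Ccna2, Foxm1, Aurkb, Tpx2, Ccne2, Gins1, Gins2 and Mcm4 had no entry there. Words of 3 kinds were searched on both strands, with overlapping matches counted. The first was the E2F word (TTTCCCGC, TTTGGCGC, TTTCGCGC or TTTGCCGC), read by E2F factors at the start of DNA synthesis. The next was the CHR word TTTGAA, the core of an element of mitosis genes, and the last was CCAAT, the box of the factor NF-Y. Capitals mark every match on either strand (the reverse strand reads ATTGG or TTCAAA here) in the 200 bases before and 30 after the start of 2 replication members and 2 mitosis members, the ones of smallest p that have a promoter entry with a match. All 4 lie on the plus strand, at chr8:75109309-75109538 for Mcm5, chr7:102441495-102441724 for Rrm1, chr5:30666686-30666915 for Cenpa and chr2:164769729-164769958 for Ube2c.
Mcm5: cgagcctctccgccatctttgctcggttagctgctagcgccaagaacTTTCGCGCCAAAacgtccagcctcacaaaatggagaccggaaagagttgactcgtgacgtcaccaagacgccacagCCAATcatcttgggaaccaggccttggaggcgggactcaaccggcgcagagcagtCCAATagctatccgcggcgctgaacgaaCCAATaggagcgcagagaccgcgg
Rrm1: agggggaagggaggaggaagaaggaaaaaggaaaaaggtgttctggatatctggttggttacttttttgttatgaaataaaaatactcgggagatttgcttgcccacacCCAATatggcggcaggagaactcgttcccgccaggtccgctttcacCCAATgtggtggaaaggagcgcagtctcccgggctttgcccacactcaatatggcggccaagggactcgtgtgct
Cenpa: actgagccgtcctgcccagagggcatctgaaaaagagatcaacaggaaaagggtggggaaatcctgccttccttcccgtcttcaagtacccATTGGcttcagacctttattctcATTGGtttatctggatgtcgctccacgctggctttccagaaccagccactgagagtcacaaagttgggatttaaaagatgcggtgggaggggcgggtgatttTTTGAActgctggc
Ube2c: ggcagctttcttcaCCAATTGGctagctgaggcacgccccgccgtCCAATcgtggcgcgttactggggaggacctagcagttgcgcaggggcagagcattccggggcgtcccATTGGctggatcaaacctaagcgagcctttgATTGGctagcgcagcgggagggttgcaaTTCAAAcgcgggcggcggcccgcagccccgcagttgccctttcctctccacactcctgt

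The Mcm5 promoter held a pair of overlapping E2F words, the first beginning 153 bases before the start, and 3 CCAAT boxes. That of Rrm1 held 2 CCAAT boxes only. The Cenpa promoter held a CHR word at base 17 after the start downstream of 2 CCAAT boxes, and that of Ube2c a CHR word 29 bases before the start. Ube2c had 6 CCAAT matches, of which 2 overlap in one palindrome and 1 lies upstream of the printed bases. Over the classes, 6 of 14 replication promoters held an E2F word (those of Cdc6, Cdt1, Mcm3, Mcm5, Mcm6 and Mcm7) and 0 of 15 mitosis promoters did, while 2.26% of all 32851 promoters did. A CHR word stood in 10 of 15 mitosis promoters, in 2 of 14 replication promoters and in 17.9% of all. CCAAT was present in 12 of 15 mitosis and 10 of 14 replication promoters, against 37.4% of all. Every mitosis promoter with a CHR word also had a CCAAT box, and 6.95% of all promoters had both. A match is a run of letters and not a measured binding site.

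The records gave the treatment of each array in conflicting ways. All 6 scanner files were deposited under the same-numbered sample of the opposite treatment to the one in the file's own name. In the deposited value table, the column of each sample, read by its title, held the values of the array whose file name carried that sample's treatment. Over 24258 probes the Spearman correlation within such a pair was 0.9999997 or more, and 0.943 to 0.952 between a sample's column and the array filed under it. The words imiquimod and vehicle below follow the file names and value table. By the sample each file was deposited under, every sign is turned. Of the listed genes of the imiquimod response, 9 of 9 measured were called higher in the arrays so named, against 12.8% of all genes. Krt6b, a keratin of wounded epidermis, was higher by 5.40 (SE 0.33, adjusted p = 0.00143 in limma). That list was drawn up with earlier results of these data known, so it is no independent check on the group names. Of an array's probes, 61.6% to 67.8% were well above background. The number of arrays limits the precision. Krt5 and Krt14, keratins of the basal epidermis, were well above background on every array. Imiquimod array 1 and all vehicle arrays shared slide 1, and imiquimod arrays 2 and 3 lay on slide 2.

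None of the 40 cell cycle genes passed between the groups at an adjusted p under 0.05 in limma, where 23.6% of all genes passed (12.8% higher and 10.8% lower in imiquimod). Their adjusted p-values ran from 0.0816 to 0.946. At an unadjusted p under 0.05 there were 2 members, Gins2 and Ccne1, both with positive differences, against 39.0% of all genes (20.8% upward and 18.2% downward). The differences leaned to one side without passing: 38 of 40 were above 0 (imiquimod minus vehicle), as were 51.2% of all genes, and the median was 0.42 against 0.013. The median difference was 0.25 for replication members, 0.68 for mitosis members and 0.39 for the 6 members of the whole cycle, all in log2. With slide as a block, the replication median was 0.40 and the mitosis median 0.67. That contrast rests on imiquimod array 1 alone, since slide 2 held no vehicle array. In 11 members every imiquimod array lay above every vehicle array, and in 0 every one lay below. The same non-overlap was found upward in 25.3% and downward in 21.2% of all genes. The upward share of 11 in 40 is near that background.

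These differences rested largely on vehicle array 3. Without it, 21 of 40 differences were above 0 and 19 below. The median over all members was then 0.043, that of replication members -0.013, that of mitosis members 0.12 and that of the whole-cycle members -0.068. Again 0 members passed, while 25.1% of all genes did, and 5 had an unadjusted p under 0.05, against 40.3% of all genes. Of those 5, 1 was lower in imiquimod (Ccne2, by -0.71). The 95% intervals of the differences narrowed from a median of 0.92 on either side to 0.33. With all arrays, the intervals of 26 of the 40 members reached a 2-fold higher level (a log2 of 1).

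**Figure D1:**
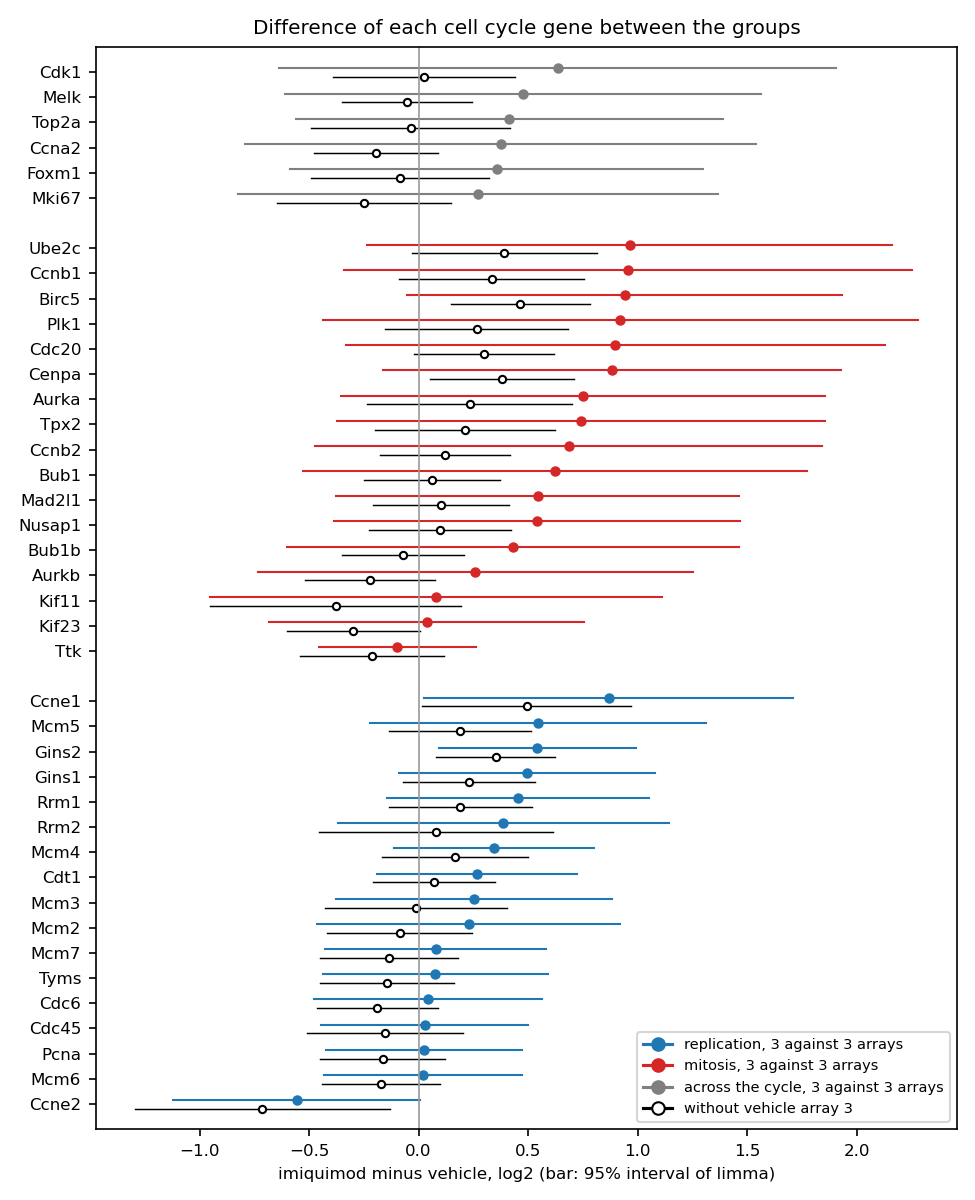
Difference of each of the 40 members between the groups (x axis, imiquimod minus vehicle in log2; bars, 95% intervals of limma), with all 6 arrays (coloured, by class) and without vehicle array 3 (open circles). With all arrays 38 of 40 points lie above 0 and the medians are 0.25 for replication and 0.68 for mitosis, while without that array 21 lie above 0 and the intervals are shorter.

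Among the replication members, the helicase subunits Mcm2 to Mcm7 differed by 0.23, 0.25, 0.34, 0.55, 0.021 and 0.079, in that order of their numbers. Mcm5, whose E2F words are shown above, had log2 signals, relative to the 75th percentile of each array, of 2.32, 2.05 and 2.17 on the imiquimod arrays and 1.95, 2.02 and 0.92 on the vehicle arrays. Its 3 imiquimod values lay above the vehicle values, but by only 0.029 at the closest, and vehicle array 3 was 1.04 below the next array. Mcm6 stood at 4.26, 4.15 and 4.24 on the imiquimod arrays and 4.40, 4.39 and 3.81 on the vehicle arrays, with a difference of 0.021 (SE 0.18, adjusted p = 0.946) and a 95% interval of -0.43 to 0.47; its sign turned under quantile and normexp processing. The other Mcm subunits showed overlapping groups.

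Of the factors that load and fire the helicase, Gins2, a GINS subunit (probe at mm9 chr8:123112627-123112686), had the smallest p of all 40 members. Its values were -0.80, -0.71 and -0.69 on the imiquimod arrays and -1.12, -1.05 and -1.66 on the vehicle arrays, and the difference was 0.54 (SE 0.18, adjusted p = 0.0816). Its groups did not overlap, although the adjusted p missed the threshold, and without vehicle array 3 the difference was 0.35 (adjusted p = 0.0696). Gins1, another GINS subunit (mm9 chr2:150756868-150756927), stood at 0.99, 0.79 and 0.88 on the imiquimod arrays and 0.60, 0.70 and -0.14 on the vehicle arrays. Its difference was 0.49 (SE 0.24, adjusted p = 0.183), again without overlap and without passing. The other Gins1 probe differed by 0.27, and there the groups overlapped. Cdt1, which loads the helicase, differed by 0.27, Cdc6, its partner, by 0.044, and Cdc45, a subunit of the active helicase, by 0.029. Cdc6 stood at -2.02, -2.02 and -2.11 on the imiquimod arrays and -1.82, -1.91 and -2.56 on the vehicle arrays, and the groups overlapped. A further Cdc6 probe differed by -0.58, opposite in sign.

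The E-type cyclins, which drive entry into DNA synthesis, had differences of opposite sign. Ccne1 (mm9 chr7:38882937-38882960) had values of 1.66, 1.20 and 1.39 on the imiquimod arrays and 0.77, 1.07 and -0.20 on the vehicle arrays. All its imiquimod values were above all vehicle values, with a difference of 0.87 (SE 0.34, adjusted p = 0.120) and an interval of 0.024 to 1.71. Its other probe differed by 1.06. Ccne2 (mm9 chr4:11130171-11130230) had values of -2.91, -3.52 and -3.48 on the imiquimod arrays and -2.48, -2.71 and -3.06 on the vehicle arrays. It was the one replication member with a negative difference, at -0.56 (SE 0.23, adjusted p = 0.132), and the one member of 40 that vehicle array 3 did not hold at its lowest level. Imiquimod array 1 lay among the vehicle values, so the groups overlapped. The other Ccne2 probe differed by only -0.20, also with overlap, and neither cyclin passed.

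The sliding clamp and the enzymes of nucleotide supply follow. Pcna, a routine marker of dividing cells (mm9 chr2:132075420-132075557), stood at 3.71, 3.72 and 3.63 on the imiquimod arrays and 3.78, 3.92 and 3.29 on the vehicle arrays. These groups overlapped, and the difference was 0.024 (SE 0.18, adjusted p = 0.937), with an interval of -0.42 to 0.47 that holds no 2-fold change; its sign turned under quantile normalization. Tyms, thymidylate synthase, stood at 2.23, 2.01 and 2.07 on the imiquimod arrays and 2.22, 2.27 and 1.59 on the vehicle arrays. Its groups overlapped, with a difference of 0.077 and, for its other probes, of -0.34 and 0.10. The probe at -0.34 was dim, well above background on 2 of 3 imiquimod and 3 of 3 vehicle arrays. Rrm1 and Rrm2, the subunits of ribonucleotide reductase, differed by 0.45 and 0.39, and only Rrm1 had groups that did not overlap.

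Mitosis members had larger differences and wider intervals than replication members (median distance from the estimate to either bound 1.05 against 0.52); the difference between the classes was not tested, and none passed. Birc5, or survivin, a subunit of the chromosomal passenger complex (mm9 chr11:117716959-117717018), had values of 4.07, 3.86 and 4.04 on the imiquimod arrays and 3.45, 3.60 and 2.09 on the vehicle arrays. Its groups did not overlap, and the difference was 0.94 (SE 0.41, adjusted p = 0.144). Without vehicle array 3 it was 0.46 (adjusted p = 0.0512), the smallest adjusted p that any member reached in any setting. Cenpa, the centromeric histone (mm9 chr5:30976729-30976788), had values of 0.18, -0.056 and 0.11 on the imiquimod arrays and -0.38, -0.23 and -1.81 on the vehicle arrays. It differed by 0.88 (SE 0.43, adjusted p = 0.182), with no overlap, and by 0.38 without vehicle array 3.

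Ube2c, the ubiquitin-conjugating enzyme of the anaphase-promoting complex (mm9 chr2:164598016-164598075), had values of 2.43, 2.38 and 2.60 on the imiquimod arrays and 1.87, 2.28 and 0.36 on the vehicle arrays. Its difference was 0.96 (SE 0.49, adjusted p = 0.201), which was 0.39 without vehicle array 3. Ccnb1, the cyclin B1 of Cdk1 (mm9 chr13:101549634-101549693), had values of 0.35, 0.10 and 0.21 on the imiquimod arrays and -0.31, 0.083 and -1.98 on the vehicle arrays. The lowest imiquimod value exceeded the highest vehicle value by 0.018, and the difference was 0.96 (SE 0.53, adjusted p = 0.235). Its other 2 probes differed by 0.52 and 0.56. Cdc20, the activator of the anaphase-promoting complex, was the other mitosis member without overlap, at 0.90.

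In the remaining mitosis members the groups overlapped. The kinases Plk1, Aurka and Aurkb differed by 0.92, 0.75 and 0.26, and Ccnb2, the other B-type cyclin, by 0.68. The spindle checkpoint genes Bub1, Bub1b and Mad2l1 differed by 0.62, 0.43 and 0.54, while Ttk, a checkpoint kinase, was at -0.097. Bub1 stood at -0.010 after normexp background correction, and Ttk at 0.011 after quantile normalization. The other tested Bub1 probe differed by 0.026, and on it vehicle array 3 (-1.25) was the highest vehicle array. The spindle protein Tpx2 differed by 0.74.

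For 3 mitosis members the probes disagreed in sign. Nusap1, a spindle protein, stood at 0.74, 0.77 and 0.88 on the imiquimod arrays and 0.58, 0.82 and -0.63 on the vehicle arrays, and differed by 0.54 on that probe and by -0.13 on its other one. Kif11, the motor that pushes spindle poles apart, stood at -1.30, -1.59 and -0.89 on the imiquimod arrays and -0.89, -0.87 and -2.26 on the vehicle arrays. It differed by 0.080, and by 0.21 and -0.59 on its other probes, which were dim. The probe at -0.59 was well above background on 1 of 3 imiquimod and 3 of 3 vehicle arrays. That at 0.21 was so on 2 of 3 arrays in each group. Kif23, a motor of the final cell separation, stood at -0.36, -0.34 and -0.26 on the imiquimod arrays and -0.12, 0.077 and -1.03 on the vehicle arrays, with 0.037 and, on its other tested probe, -0.069. In all 3 genes vehicle array 3 was the lowest on the probe that represents the gene.

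Of the genes active across the cycle, Mki67, which encodes the Ki-67 antigen (mm9 chr7:142881591-142881650), had values of 3.65, 3.75 and 3.9997 on the imiquimod arrays and 3.94, 4.16 and 2.49 on the vehicle arrays. The groups overlapped fully, with vehicle array 2 the highest and vehicle array 3 the lowest. Its difference was 0.27 (SE 0.45, adjusted p = 0.691), and -0.25 without vehicle array 3. Top2a, a topoisomerase that untangles chromosomes (mm9 chr11:98857244-98858058), stood at 0.17, -0.050 and 0.41 on the imiquimod arrays and 0.10, 0.33 and -1.14 on the vehicle arrays. Here too vehicle array 3 alone was apart, and the difference of 0.41 (SE 0.40, adjusted p = 0.483) became -0.036 without it.

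Cdk1, the kinase of mitotic entry (mm9 chr10:68805423-68807832), stood at -0.46, -0.81 and -0.51 on the imiquimod arrays and -0.74, -0.49 and -2.45 on the vehicle arrays. Melk, a kinase of dividing cells (mm9 chr4:44376833-44376892), stood at 0.55, 0.40 and 0.57 on the imiquimod arrays and 0.51, 0.60 and -1.02 on the vehicle arrays. In both, 5 arrays lay close together and vehicle array 3 was lower by more than 1 unit than any of them. Their differences were 0.63 (SE 0.52, adjusted p = 0.409) and 0.48 (SE 0.44, adjusted p = 0.470). Those of Foxm1, a transcription factor of mitosis genes, and Ccna2, cyclin A2, were 0.36 and 0.37. None passed.

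**Figure D2:**
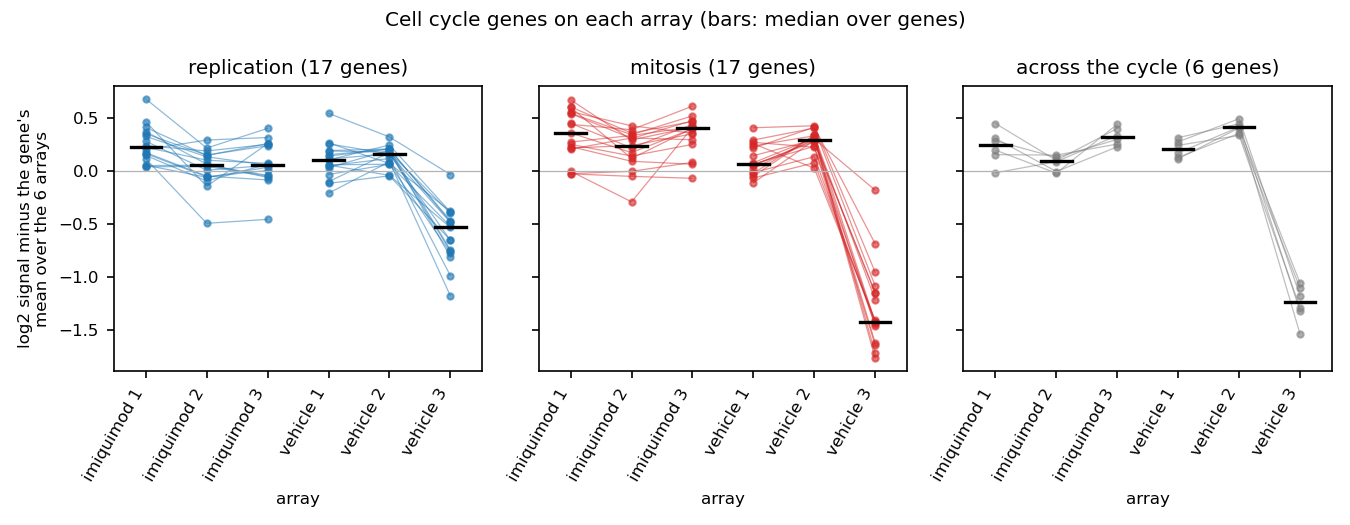
Log2 signal of each member minus its mean over the 6 arrays (y axis), on each array (x axis), for 17 replication, 17 mitosis and 6 whole-cycle genes; lines join the values of a gene within a group, and black bars are medians. The class medians of the other arrays lie between 0.055 and 0.41, and those of vehicle array 3 at -0.53, -1.42 and -1.24.

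Array by array, the members separated 1 vehicle array from all the others. With every gene centred on its own 6-array mean, replication members had medians of 0.22, 0.055 and 0.055 on the imiquimod arrays and of 0.10, 0.16 and -0.53 on the vehicle arrays. Mitosis members had medians of 0.36, 0.24 and 0.40, and of 0.066, 0.30 and -1.42. Vehicle arrays 1 and 2 lay within the range of the imiquimod arrays in both classes, except vehicle array 1 for mitosis. Vehicle array 3 was the lowest of 6 arrays in 39 of 40 members, against 19.4% of all genes tested. Over the 57 tested member probes, it was the lowest in 51. Within groups, the SD had a median of 0.77 among vehicle arrays and 0.12 among imiquimod arrays, against 0.23 and 0.15 over all genes. These counts describe an array singled out after its values were seen, and no test is attached to them.

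Mitosis genes were lower on that array by more than replication genes. Against the mean of vehicle arrays 1 and 2, the mitosis members had a median of -1.51 (2.85-fold lower), from -1.97 for Plk1 to -0.34 for Ttk. Replication members had a median of -0.66 (1.58-fold lower), from -1.12 for Ccne1 to -0.47 for Ccne2. Members of the whole cycle had a median of -1.57, and all genes tested 0.060. A gap of at least 1 unit was found in 16 of 17 mitosis, 2 of 17 replication and 6 of 6 whole-cycle members, and in 4.69% of all genes. The 2 replication members were Ccne1 and Mcm5, and the mitosis member below that size was Ttk. The helicase subunits Mcm2 to Mcm7 had a median gap of -0.72, and the 5 mitotic cyclins and kinases (Ccnb1, Ccnb2, Plk1, Aurka and Aurkb) one of -1.69. The other 5 arrays spanned a median range of 0.37 in the members and 0.69 in all genes. These ranges are not alike, since the array left out was the lowest in 39 of 40 members and in 19.4% of all genes. Its removal shortens the range of nearly every member by construction.

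Set beside the promoter words, the gap ran as follows. The 15 members with both CHR and CCAAT words had a median gap of -1.51. The 7 with an E2F word had one of -0.70, with Cdk1, which held both kinds, at -1.83. The 11 with neither an E2F nor a CHR word, Ccnb1 and Birc5 among them, had a median of -1.32. Since the words are unevenly spread over replication and mitosis genes, these groups overlap with those classes. All these values describe, with no test.

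**Figure D3:**
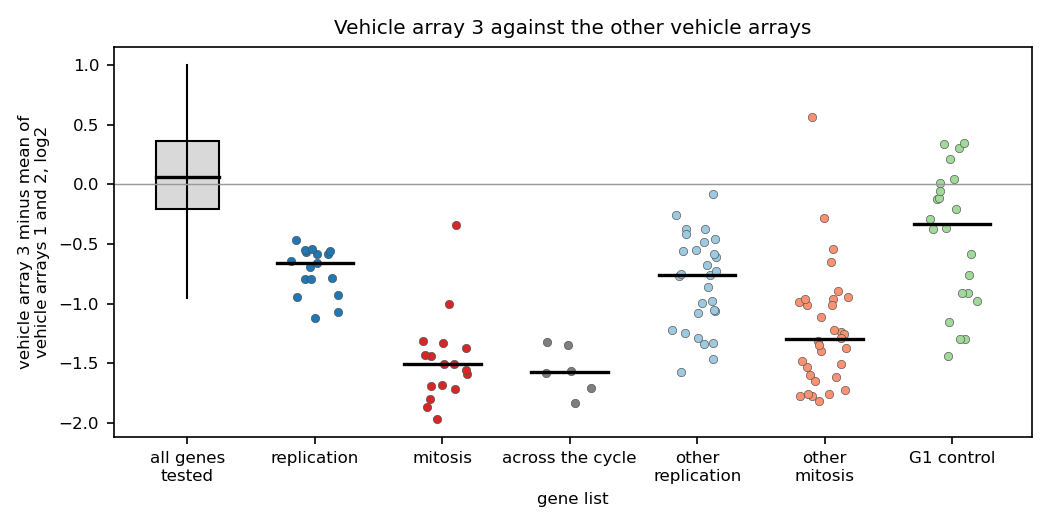
Vehicle array 3 minus the mean of vehicle arrays 1 and 2 (y axis, log2) for the members by class and for other genes of the cycle (points, 1 per gene; bars, medians); the box shows the quartiles of all 17777 genes, with its line from the 5th to the 95th percentile. Mitosis members centre on -1.51, replication members on -0.66, other mitosis genes on -1.30, other replication genes on -0.76 and all genes on 0.060.

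Further genes of the same processes, listed by function, were also measured on the same arrays. Their lists were drawn up with earlier results of these data known, so they are no independent check on the members. Of 29 other replication genes, 0 passed in limma and 2 had an unadjusted p under 0.05, against 23.6% and 39.0% of all genes. Their median difference was 0.15. Gmnn, or geminin, the inhibitor of Cdt1, differed by 0.59 (SE 0.22, adjusted p = 0.103), Rfc3, a clamp loader subunit, by 0.37 (SE 0.15, adjusted p = 0.118) and Chaf1a, a histone chaperone of replicated DNA, by 0.72 (SE 0.31, adjusted p = 0.143). Of 32 other mitosis genes, 0 passed in limma and 2 had an unadjusted p under 0.05, against the same shares of all genes, with a median of 0.46. The checkpoint gene Bub3 was at 0.33 (SE 0.13, adjusted p = 0.114), Tacc3, a spindle protein, at 0.79 (SE 0.31, adjusted p = 0.115) and Kif2c, a microtubule-depolymerising motor, at 1.00 (SE 0.43, adjusted p = 0.145). Vehicle array 3 was the lowest array in 27 of the 29 replication and 31 of the 32 mitosis genes.

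Of 24 genes that control passage through G1, 22 were tested. They held 1 higher, 2 lower and 19 that did not pass, against 23.6% of all genes that passed, with a median of -0.10 and vehicle array 3 lowest in 8. Ccnd2, the cyclin D2, was lower, with values of 2.32, 2.40 and 2.33 on the imiquimod arrays and 4.24, 4.64 and 3.86 on the vehicle arrays. The groups lay well apart, at -1.90 (SE 0.21, adjusted p = 0.00381). E2f2, an E2F activator, was lower, at 1.13, 1.01 and 0.99 against 2.72, 3.24 and 1.68, a difference of -1.51 (SE 0.39, adjusted p = 0.0402). E2f1, another activator, was higher, by 0.59 (SE 0.15, adjusted p = 0.0406). The E2f2 call was lost without any array but vehicle array 3 (adjusted p from 0.0512 to 0.124), and with slide or replicate number as a block (0.220 and 0.0623). That of E2f1 was lost without imiquimod array 2 or 3 or any vehicle array (adjusted p from 0.0717 to 0.123) and with slide or replicate number as a block (0.298 and 0.0987). Both were also lost within slide 1 (0.349 for E2f2 and 0.425 for E2f1) and with no filter on dim probes (0.0671 and 0.0821), and E2f1 for the mean of its probes (0.0786). Ccnd2 kept its call in the other settings and lost it within slide 1 (-1.92, adjusted p = 0.126).

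A list of hair follicle genes, which is no measure of dividing cells, moved with the groups and with vehicle array 3. All 12 measured genes of the hair matrix and root sheath had negative differences. Of these, 8 were called lower by limma (adjusted p below 0.05), against 10.8% of all genes. Among those, Krt25 and Krt85 were not well above background on any imiquimod array. Krt71 (-12.02, SE 0.83, adjusted p = 0.00162), a keratin of the inner root sheath, stood at -5.17, -4.60 and -3.33 on the imiquimod arrays and at 8.25, 8.72 and 5.99 on the vehicle arrays (2 of 3 imiquimod arrays well above background). Msx2, a transcription factor of the hair matrix, stood at -2.02, -1.78 and -1.82 against 2.50, 3.30 and -0.92 (adjusted p = 0.0627). In all 12 genes vehicle array 3 was lower by at least 1 unit than the mean of the other vehicle arrays, with a median gap of -3.05. The log2 of the list's mean signal ran from -1.22 to -0.85 on the imiquimod arrays and from 3.34 to 6.76 on the vehicle arrays. Their part in the result was not tested.

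In the lists of other skin cell types the median on vehicle array 3 was above that of the other vehicle arrays. The 8 basal keratinocyte genes had a median of 0.60 there against the other vehicle arrays, with 0 of 8 lowest on that array. Of these genes, limma called 2 higher and 1 lower in the imiquimod arrays, against 12.8% and 10.8% of all genes (Krt14 by 2.24, SE 0.15, adjusted p = 0.00157). The log2 of their mean signal was 6.74 to 6.98 on the imiquimod and 5.92 to 6.31 on the vehicle arrays. The list was split, with 4 differences above 0 and 4 below. Krt5 was the other higher gene (0.76, adjusted p = 0.0126) and Krt15, a keratin of the hair follicle bulge, the lower one (-2.13, adjusted p = 0.00938). The 6 fibroblast genes had a median gap of 0.51, the 5 endothelial genes 0.54, the 5 adipocyte genes 0.62, the 6 skeletal muscle genes 1.12 and the 9 leukocyte genes 0.83. Of the leukocyte list, which shares S100a8 with the imiquimod response list, 5 of 9 genes were higher in the imiquimod arrays and 0 lower. The shares of all genes were 12.8% and 10.8%. The log2 of the list's mean signal was 4.86 to 5.42 on the imiquimod arrays and 0.23 to 0.79 on the vehicle arrays. S100a8 alone averaged 8.11 in log2 on the imiquimod arrays and makes up most of the level there. On the vehicle arrays it averaged 1.01, below Adgre1 at 1.97 and Ptprc at 1.27. The T cell genes Cd3e and Cd3g had differences of -0.77 and -0.84, and Cd4 was not well above background on any imiquimod array; none of these passed. Vehicle array 3 shared slide 1 with the other vehicle arrays and imiquimod array 1. Its negative control spots had the highest mean net signal, 45.2 against 31.7 to 40.9, and its 75th percentile of signal was 995, within the 917 to 1166 of the other arrays. The part of these in the result was not tested.

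**Figure D4:**
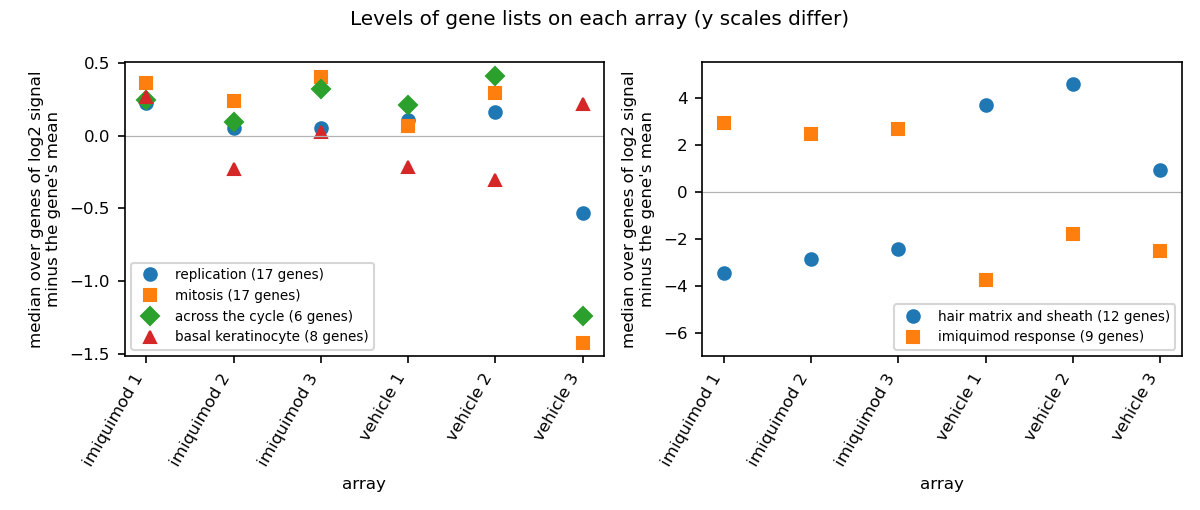
Median over the genes of each list of the log2 signal minus the gene's mean (y axes, on different scales), on each array (x axis): the member classes and basal keratinocyte genes at left, hair matrix and sheath genes and imiquimod response genes at right. Vehicle array 3 is the lowest in the member classes (-0.53 for replication, -1.42 for mitosis) and stands at 0.91 for hair genes, between 3.71 and 4.57 on the other vehicle arrays and -2.44 on the nearest imiquimod array.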

How the data were processed

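Total RNA of whole skin was hybridised to single-colour (Cy3) Agilent mouse arrays, 3 per group. Per the file headers, the scanner files give linear intensity per spot, and the processed signal was background-subtracted and detrended (Feature Extraction 10.7.3.1; the submitters' processing notes name 9.1). The authors' deposited value table holds log2 values with column medians of 7.05, and how it was normalized is not given in the sources used here.

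Each scanner file was joined to the sample whose value-table column it matched, and group and number came from that sample's title. Control spots and 322 outlier spots were left out, and spots of a probe were averaged. The processed signal was put on a log2 scale and the 75th percentile of the array subtracted. Probes well above background on at least 3 of 6 arrays were tested (27414), and a gene stood for its brightest such probe; 8 of 65 member probes were not tested. Members were matched by the file's gene name, other genes through RefSeq accessions or synonyms. The contrast of imiquimod with vehicle was fitted in limma 3.58.1 (R 4.3.3, two-sided, no covariates, Benjamini-Hochberg over all genes). This step was run on simulated arrays in which genes varied independently, with the same spread in both groups. Those arrays held no shift shared by many genes, such as that on vehicle array 3, so that case was not tested. Members and lists were chosen with earlier results of these data known. Genes with values per array were Mki67, Top2a, Pcna and the 4 replication, 4 mitosis and 2 other members of smallest p, with those whose probes differed in sign; of the other replication, mitosis and G1 lists, the 3 of smallest p and those that passed were named, and of the marker lists the gene of smallest p. Mcm5, Mcm6, Msx2 and the further marker genes named were chosen after their values were seen. From the list of other replication genes, 1 gene is not reported here, and its counts and medians leave it out.

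Same-numbered arrays were not taken as pairs, since their deviations from the group means correlated at -0.087, 0.068 and 0.085 over 17777 genes. Pearson correlations of arrays were 0.989 to 0.992 within imiquimod, 0.950 to 0.980 within vehicle and 0.904 to 0.940 between groups. Alternatives covered normalization, background correction, the value table, group assignment, filters, probe averaging, variance model, slide, replicate block and leaving out each array.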

Additional observations from a re-analysis of the deposited data

How the results depend on the processing

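In all 18 settings, the reported one included, 0 of 40 members were called higher and 0 lower, and the smallest adjusted p of a member was 0.0512 (limma, without vehicle array 3). The limits are the 3 arrays per group and vehicle array 3, with which the median interval of a member was wider (0.92 against 0.33 on either side). With the replicate number as a block (replicate block) 0 members passed, and 1141 genes were higher and 1073 lower among all genes, against 2277 and 1923. With slide as a block these counts were 538 and 539, and within slide 1, where 1 imiquimod array met 3 vehicle arrays, 7 and 1. Leaving out 1 array gave 914 to 2444 genes higher and 751 to 2256 lower, and medians of 0.043 to 0.66 for all members, -0.013 to 0.39 for replication and 0.12 to 0.95 for mitosis, the lowest of each without vehicle array 3.

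Quantile normalization turned the sign of Pcna (-0.042), Ttk (0.011) and Mcm6 (-0.096), as the value table did (-0.045, 0.010 and -0.097). Normexp correction turned Bub1 (-0.010) and Mcm6 (-0.00027). The mean of a gene's probes turned Cdc6 (-0.27), Kif11 (-0.099), Kif23 (-0.016) and Tyms (-0.052), and slide as a block and within slide 1 turned Kif23 (-0.0053). The cause was not tested. Over the fits that leave out 1 array, the members that changed sign ranged as follows: Cdc45 -0.15 to 0.17, Mcm6 -0.17 to 0.12, Kif11 -0.38 to 0.31, Ttk -0.21 to 0.031, Mki67 -0.25 to 0.59, Top2a -0.036 to 0.70, Pcna -0.16 to 0.15, Melk -0.052 to 0.76, Cdc6 -0.19 to 0.18, Kif23 -0.30 to 0.25, Tyms -0.14 to 0.20, Foxm1 -0.084 to 0.65, Ccna2 -0.19 to 0.69, Bub1b -0.070 to 0.70, Aurkb -0.22 to 0.53, Mcm3 -0.013 to 0.40, Mcm2 -0.086 to 0.39 and Mcm7 -0.14 to 0.20.

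With the groups as the scanner files are filed, each sign turns by construction. The medians are then -0.42 for all members, -0.25 for replication and -0.68 for mitosis. Replication members stand at Gins2 -0.54, Ccne1 -0.87, Ccne2 0.56, Gins1 -0.49, Rrm1 -0.45, Mcm4 -0.34, Mcm5 -0.55, Cdt1 -0.27, Rrm2 -0.39, Mcm3 -0.25, Mcm2 -0.23, Mcm7 -0.079, Tyms -0.077, Cdc6 -0.044, Cdc45 -0.029, Pcna -0.024 and Mcm6 -0.021. Mitosis members stand at Birc5 -0.94, Cenpa -0.88, Ube2c -0.96, Ccnb1 -0.96, Cdc20 -0.90, Aurka -0.75, Plk1 -0.92, Tpx2 -0.74, Ccnb2 -0.68, Mad2l1 -0.54, Nusap1 -0.54, Bub1 -0.62, Bub1b -0.43, Ttk 0.097, Aurkb -0.26, Kif11 -0.080 and Kif23 -0.037. The whole-cycle members stand at Cdk1 -0.63, Melk -0.48, Top2a -0.41, Foxm1 -0.36, Ccna2 -0.37 and Mki67 -0.27, and the other named genes at Gmnn -0.59, Rfc3 -0.37, Chaf1a -0.72, Bub3 -0.33, Tacc3 -0.79, Kif2c -1.001, Ccnd2 1.90, E2f2 1.51, E2f1 -0.59, Krt6b -5.40, Krt14 -2.24 and Krt71 12.02.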
